A study of Mus musculus with 4 samples.

Results

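The CD300, PILR and PIR paired receptors are 10 mouse genes from 3 immunoglobulin-like receptor families. They were chosen by name, but with earlier results of these data known. They are the inhibitory receptor genes Cd300a, Cd300lf, Pilra, Pirb and Lilrb4a and the activating or non-inhibitory receptor genes Cd300lb, Cd300ld, Pilrb1, Pilrb2 and Lilr4b. Of the 10 genes, 8 had a row among the 17476 genes counted, and all 8 were tested. The GENCODE M21 identifiers of Lilrb4a and Lilr4b had no row, so their levels were not analysed here.

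RNA was measured in myeloid-derived suppressor cells (MDSCs), a myeloid population named for its suppression of T cells, in libraries of total RNA depleted of ribosomal RNA. The tested cells were differentiated in culture from bone marrow of TREM2mut mice (2 libraries, Trem2 mutant 1 and Trem2 mutant 3), and their counterparts from bone marrow of wild-type C57/BL6 mice (2 libraries, WT 1 and WT 2), and all 4 are labelled C57BL/6. The sources used here do not give the age and sex of the marrow donors or the kind of Trem2 mutation. Cells of either genotype were injected into NRG males, a strain without lymphocytes that keeps its own myeloid cells. The recipients had been challenged under the skin at the age of 6 weeks with TRAMP-C1, a mouse prostate cancer line, and received the MDSCs 4 weeks later. Tumours were taken after 6 h, and CD45+ CD11B+ GR1+ cells were sorted without a marker that tells injected cells from those of the recipient. The study asked which genes and pathways differ between the genotypes.

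Paired receptors share similar outer domains but carry opposite signals. The inhibitory members hold tyrosine motifs (ITIMs) in their tails that recruit the phosphatases SHP-1 and SHP-2. The activating members have short tails and signal through the adaptors DAP12 or the Fc receptor gamma chain, which carry activating motifs (ITAMs); DAP12 is also the adaptor of TREM2. CD300 receptors bind lipids exposed on dying cells, such as phosphatidylserine, PILR receptors bind sialylated O-glycans on proteins, and PIR-B binds MHC class I molecules and myelin inhibitors. On myeloid cells these receptors set thresholds for phagocytosis, cytokine release and integrin adhesion.

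The PILR genes lie side by side on the minus strand of chromosome 5, and the DNA before Pilrb1 and Pilrb2 is shown because these neighbours are near copies whose reads were nevertheless counted apart. The stretches are chr5:137858107-137858299 for Pilrb1 and chr5:137871816-137872008 for Pilrb2 (GRCm38.p6, minus strand, 5′ to 3′). They were cut from windows before the RefSeq starts and end where the GENCODE M21 genes begin. The RefSeq starts, from which motif positions are counted below, lie further in. Capitals mark the bases at which the stretches differ.
Pilrb1: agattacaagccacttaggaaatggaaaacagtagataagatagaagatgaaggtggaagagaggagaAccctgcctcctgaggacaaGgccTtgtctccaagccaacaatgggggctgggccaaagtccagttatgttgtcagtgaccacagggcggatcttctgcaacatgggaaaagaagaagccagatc
Pilrb2: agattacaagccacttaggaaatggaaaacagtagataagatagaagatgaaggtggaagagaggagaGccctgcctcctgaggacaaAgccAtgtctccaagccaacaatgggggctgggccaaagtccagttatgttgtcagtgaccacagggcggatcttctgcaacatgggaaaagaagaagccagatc
Of 193 aligned bases 190 were identical (98.4%). Of the 75-base windows of either gene's transcripts, 9.27% occurred without a mismatch in the other, 75 cycles being the kit's read length. End-to-end alignment of the 250 bases before the RefSeq starts of Pilra and Pilrb2 gave 196 identical and 108 differing columns (64.5% identical). All differing columns there were gaps, so every base that was paired was identical. The same method gave 52.6% for Pilra and Pilrb1, although the whole windows of Pilrb1 and Pilrb2 were 98.4% identical. These percentages depend on where gaps were placed and do not rank the likeness of Pilra to the copies.

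Total counts were 10306674 and 9820893 reads in Trem2 mutant 1 and 3, and 8037733 and 8077966 reads in WT 1 and 2. Levels are given as CPM, reads scaled to library size with the TMM method. A gene is said to have risen or fallen where edgeR's quasi-likelihood test, adjusted over all genes by Benjamini-Hochberg, gave an adjusted p under 0.05. Trem2, the targeted gene, had 22.9 and 20.96 CPM in Trem2 mutant 1 and 3 and 44.2 and 52.2 CPM in WT 1 and 2, so it was 2.20-fold lower in the mutant libraries (log2 fold change −1.14, SE 0.125, adjusted p = 0.00157). In Trem2 mutant 1 the locus Gm42418, which overlaps ribosomal RNA sequence, took 13.9% of reads, against 0.258% to 1.04% in the other libraries. The female-specific RNA Xist had 16045 reads in the mutant libraries and 5 in the WT libraries, so genotype and the sex of the cells cannot be told apart. The gate genes Ptprc (CD45) and Itgam (CD11B) were present in every library, while Ly6g, which encodes a GR1 antigen, had 144 and 123 CPM in the mutant libraries and 5.66 and 7.22 CPM in the WT libraries. Neutrophil genes were higher with the mutant genotype: 8 of 10 immature granulocyte markers rose and 0 fell, with a summed level of 11001 to 16049 CPM in mutant libraries and 396 to 413 CPM in WT libraries. Among the 8, Elane entered the test only through its mutant reads (81 and 37), with 7 and 5 reads in the WT libraries. Of 8 mature neutrophil markers 7 rose and 0 fell (4 and 0 with library totals alone), with sums of 19982 to 21690.5 CPM in mutant and 7097 to 7173 CPM in WT libraries. Of 8 monocyte markers 6 rose and 0 fell (3 and 0 without WT 1), with sums of 4470 to 6082 CPM in mutant and 678 to 841 CPM in WT libraries. Most of the mutant sum came from Chil3, which is also counted among the immature granulocyte markers and had 4200 and 2884 CPM in mutant and 161 and 168 CPM in WT libraries. The monocyte receptor gene Ccr2 did not pass, with 61.3 and 40.7 CPM in mutant and 46.9 and 44.7 CPM in WT libraries. The part of this shift in the receptor values below was not tested.

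Per length of exon, Cd300lf had the highest level of the 8 receptors and the activating PILR genes the lowest. These levels are CPM divided by the exon length in kilobases (RPKM). Cd300lf, the ITIM-bearing CD300 receptor also called CLM-1, averaged 131 ± 11 in mutant and 129 ± 7.33 in WT libraries (SD, n = 2 each). Pilra averaged 83.5 ± 7.8 in mutant and 53.4 ± 4.01 in WT libraries, and Pirb 61.9 ± 1.22 and 48.7 ± 0.405 in mutant and WT libraries. Cd300lb, Cd300a and Cd300ld lay between 29.3 and 47.7 in the single libraries, Pilrb2 between 13.1 and 29.6, and Pilrb1 between 12.7 and 18.5. By the mean of all libraries the order was Cd300lf, Pilra, Pirb, Cd300lb, Cd300a, Cd300ld, Pilrb2 and Pilrb1, but the places of Cd300a and Cd300ld depended on genotype. Cd300ld was above Cd300a in the mutant libraries (33.2 ± 2.27 against 30.1 ± 1.18), and Cd300a was above Cd300ld in the WT libraries (35.9 ± 1.1 against 31.5 ± 1.2). Pilra was above Pirb, and Pilrb2 above Pilrb1, in each of the 4 libraries. In WT 2 Pilra and Pirb lay close together (50.6 and 49.0), and their ranges over all libraries overlapped. Of the 75-base windows, 14.7% for Pilra and 26.9% for Pirb also occurred in other genes. The effect of such shared sequence on the order was not tested. Within a genotype, the ranges of Pilrb2 and Pilrb1 did not overlap in the mutant libraries (27.2 to 29.6 against 17.8 to 18.5) but did in the WT libraries (13.1 to 16.2 against 12.7 to 13.7). The inhibitory genes held the first 3 places, and the mean of Cd300lf over the libraries was 8.26 times that of Pilrb1.

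**Figure D1:**
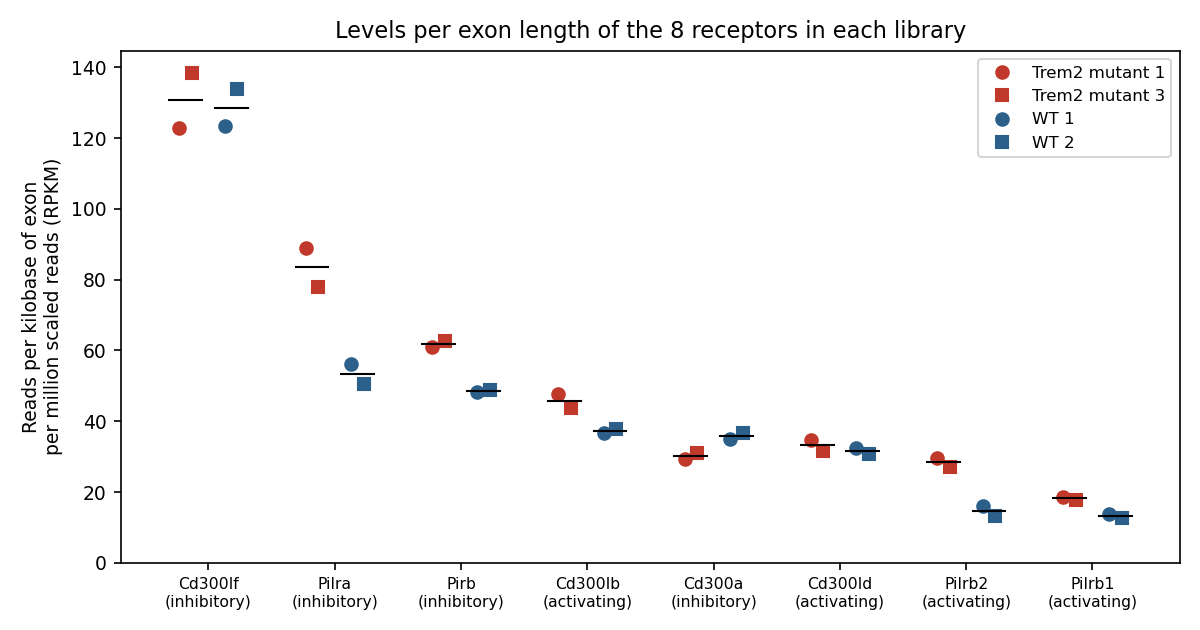
Level per exon length (RPKM, y axis from 0) of the 8 receptors in each library, in the order of their mean, with Trem2 mutant libraries in red left of WT libraries in blue and the group mean as a line. The mutant libraries lie above the WT libraries for Pilra, Pirb, Cd300lb, Pilrb2 and Pilrb1, below them for Cd300a, and overlap with them for Cd300lf and Cd300ld; with library totals alone the log2 fold changes of Pirb (−0.02) and Cd300lb (−0.08) are below 0.

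Of the 8 receptors tested, 4 were higher in the mutant libraries and 0 lower (edgeR quasi-likelihood test, adjusted p under 0.05). Over all 14239 genes tested, 9.55% were called higher and 3.6% lower (1360 and 513 genes). With libraries scaled by their totals alone, 1 receptor was higher and 1 lower, and 650 genes were higher and 4365 lower. The 4 were the 3 PILR genes and Pirb, while none of the 4 CD300 genes passed. At an unadjusted p under 0.05, 5 receptors were higher and 1 was lower; DESeq2 called 3 higher and 0 lower, and limma-voom 4 and 0. The median log2 fold change of the 8 receptors was 0.32, against −0.02 for all genes tested. In 6 of 8 receptors (75%) the mutant and WT libraries did not overlap, which was also so for 60.5% of all genes. The mutant libraries lay above WT in 5 of the 8, against 28.9% of all genes, and below WT in 1, against 31.7%. Among the 4 inhibitory receptors tested 2 were called, and among the 4 activating receptors also 2. In RNA from a mixed sort, fewer cells of a type and less RNA per cell cannot be told apart. The labels do not tell whether the libraries stem from different mice or different cultures, and the p-values reflect only how far these libraries spread, and that spread may be technical.

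All 3 PILR genes rose in the mutant libraries, and their log2 fold changes were above 0 under each of the 4 scalings tried. Pilra encodes the ITIM-bearing PILR receptor, which restrains integrin activation in mouse neutrophils (chromosome 5, 137821952 to 137836281, minus strand). It had 275 and 241 CPM in Trem2 mutant 1 and 3, against 174 and 156 CPM in WT 1 and 2. Both mutant libraries were above both WT libraries, with 2297 and 2243 reads in the mutant and 1597 and 1427 in the WT libraries. Its log2 fold change was 0.65 (SE 0.0987, 95% interval 0.42 to 0.87, adjusted p = 0.00586), or 1.56-fold. Without WT 2 the adjusted p was 0.0519, with a log2 fold change of 0.57, and with library totals alone it was 0.156, with a log2 fold change of 0.27.

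Pilrb2, the activating copy farther from Pilra, had the highest log2 fold change of the receptors (chromosome 5, 137865827 to 137871815, minus strand). It had 57.9 and 53.2 CPM in the mutant libraries and 31.7 and 25.6 CPM in the WT libraries, again with no overlap. The log2 fold change was 0.95 (SE 0.126, 95% interval 0.66 to 1.25, edgeR adjusted p = 0.00328), or 1.94-fold. It stayed called when any of the 4 libraries was left out, at log2 fold changes of 0.81 to 1.11. Over the alternatives without a fold threshold its adjusted p ran between 2.1e-05 and 0.0224.

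Pilrb1 encodes the DAP12-coupled activating receptor (chromosome 5, 137852147 to 137858106, minus strand). It had 36.3 and 34.9 CPM in the mutant libraries and 26.8 and 24.8 CPM in the WT libraries, a smaller gap than that of its neighbour. The log2 fold change was 0.46 (SE 0.109, 95% interval 0.21 to 0.72, edgeR adjusted p = 0.0308), or 1.38-fold. The call was lost without WT 1 (adjusted p = 0.145), without WT 2 (0.189), with DESeq2 (0.146) and with library totals alone (0.708, log2 fold change 0.09). With the reads of Pilrb1 and Pilrb2 summed before the fit, the log2 fold change of the sum was 0.74 (SE 0.100, adjusted p = 0.00356).

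The 2 copies, whose printed upstream DNA differs at 3 bases, stood in different proportions in the genotypes. Pilrb2 had 1.59 and 1.52 times the CPM of Pilrb1 in Trem2 mutant 1 and 3, against 1.18 and 1.03 times in WT 1 and 2. The log2 ratio was thus 0.50 higher in the mutant libraries, and their values did not overlap with those of WT. The ratio of the summed activating genes to Pilra was 0.342 and 0.366 in the mutant libraries and 0.336 and 0.323 in the WT libraries, a difference of 0.10 on the log2 scale. With 2 libraries against 2 an exact permutation test cannot go below p = 0.333, so these ratios are given as values without a test. Antisense genes with rows of their own are annotated on the opposite strand at both copies. Part of Pilra is shared with the exons of Zcwpw1 on the opposite strand (12.2% of its 75-base windows). Whether the counting took strand into account is not stated, so reads of such overlaps cannot be assigned with certainty. The antisense gene at Pilrb2, Gm43495, had 73 and 69 reads in the mutant and 43 and 37 in the WT libraries and rose (log2 fold change 0.88, edgeR adjusted p = 0.0450). That at Pilrb1, Gm36551, had 66 and 68 reads in the mutant and 54 and 47 in the WT libraries and did not pass (0.46, adjusted p = 0.199). Zcwpw1 had 18.4 and 21.6 CPM in the mutant and 12.8 and 11.3 CPM in the WT libraries and rose (0.73, edgeR adjusted p = 0.0221). The part of these overlaps in the PILR values was not tested.

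**Figure D2:**
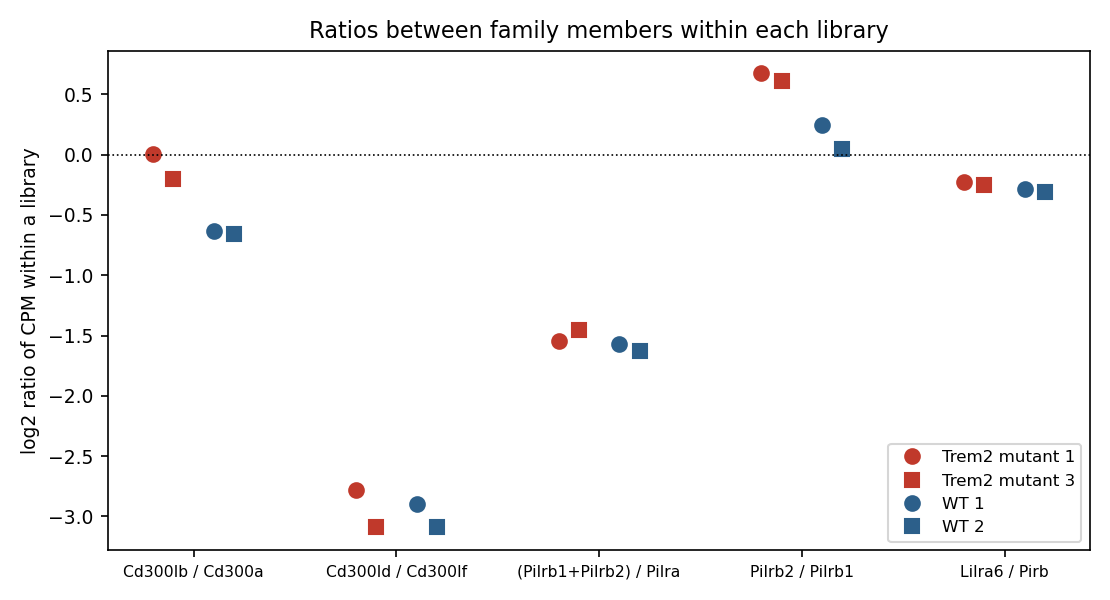
Log2 ratio of CPM between family members within each library (y axis), with Trem2 mutant libraries in red left of WT libraries in blue. The ratio of Cd300lb to Cd300a lies at 0.01 and −0.20 in the mutant libraries and at −0.63 and −0.66 in WT, and that of Pilrb2 to Pilrb1 at 0.67 and 0.61 in mutant and 0.24 and 0.04 in WT libraries, while the Cd300ld to Cd300lf ratios overlap.

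Pirb, the inhibitory receptor for MHC class I that restrains the shift of mouse MDSCs towards an inflammatory state, also rose (chromosome 7, 3711409 to 3720391, minus strand). It had 273 and 281 CPM in Trem2 mutant 1 and 3, against 216 and 219 CPM in WT 1 and 2. The WT values lay close together and both mutant values were above them. The log2 fold change was 0.35 (SE 0.0780, 95% interval 0.17 to 0.53, edgeR adjusted p = 0.0262), or 1.27-fold, and it was −0.02 when libraries were scaled by their totals alone. It did not pass when WT 1 was left out (adjusted p = 0.213, log2 fold change 0.34) or when WT 2 was (adjusted p = 0.151, log2 fold change 0.36).

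Activating relatives of Pirb in the same cluster had values beside it. Lilra6, a PIR-A type gene listed by RefSeq under the synonym Pira3, had 233 and 236 CPM in the mutant libraries and 178 and 177 CPM in the WT libraries. It rose by a log2 fold change of 0.40 (SE 0.0761, edgeR adjusted p = 0.0140), which was 0.03 with library totals alone. It did not pass when WT 1 was left out (adjusted p = 0.129) or when WT 2 was (0.109). Pira2 had 22.9 and 23.1 CPM in the mutant and 18.1 and 23.2 CPM in the WT libraries, overlapping values with an interval of −0.19 to 0.50 on the log2 scale. The ratio of Lilra6 to Pirb was 0.854 and 0.840 in the mutant libraries and 0.822 and 0.807 in the WT libraries. Of the 75-base windows of Pirb transcripts, 26.9% also occurred in other genes. Gm14548 held 14.0% of Pirb's windows and Pira2 held 13.2%, so the split of reads between them is uncertain. Gm14548 itself rose, with 108 and 85.2 CPM in the mutant and 49.2 and 49.5 CPM in the WT libraries (log2 fold change 0.97, SE 0.121, edgeR adjusted p = 0.00261). It was looked at after its shared windows were known. With the reads of Pirb, Pira2, Lilra6, Gm14548 and Gm15922 summed, the log2 fold change was 0.43 (SE 0.0858, adjusted p = 0.0163).

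Lilrb4a, which encodes the inhibitory receptor gp49B, and Lilr4b, which encodes its relative gp49A without ITIMs, lie next to each other on chromosome 10 (51490956 to 51496611 and 51480632 to 51486703, plus strand). One identifier with a row there is named Gm49339 in GENCODE M21, a locus of readthrough transcripts that spans both genes (51480612 to 51496613). Of the 75-base windows of its transcripts, 94.1% also occurred in Lilrb4a and 26.9% in Lilr4b. It had 1720 and 1747 CPM in the mutant libraries and 1480 and 1610 CPM in the WT libraries. The groups did not overlap, but the gene did not pass the test (log2 fold change 0.17, SE 0.105, 95% interval −0.08 to 0.41, edgeR adjusted p = 0.331). The sources used here do not name the annotation release behind the counts. A row whose identifier has no match in GENCODE M21 may also hold reads of these genes and was not analysed here. How the reads divide between the inhibitory and the other gene was therefore not settled.

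The CD300 genes stand in a cluster on chromosome 11, and edgeR called 0 of the 4 receptors there in either direction, as did DESeq2 and limma-voom. At an unadjusted p under 0.05, 1 was higher (Cd300lb) and 1 lower (Cd300a). Cd300lf (115116214 to 115133992, minus strand), which binds lipids such as ceramide and phosphatidylserine and dampens myeloid activation, had 633 and 713 CPM in Trem2 mutant 1 and 3, against 636 and 689 CPM in WT 1 and 2. The values overlapped, and the log2 fold change was 0.02 (95% interval −0.21 to 0.26, edgeR adjusted p = 0.908). Between 5282 and 6632 reads lay behind each value.

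Cd300a (114890041 to 114904654, plus strand), the inhibitory phosphatidylserine and phosphatidylethanolamine receptor, had 139 and 146 CPM in the mutant libraries and 166 and 174 CPM in the WT libraries. It was the only one of the 8 receptors whose mutant values both lay below WT. It did not pass the test (log2 fold change −0.25, SE 0.0793, 95% interval −0.44 to −0.07, edgeR adjusted p = 0.0748). Scaled by library totals alone it was called lower, at −0.62, where the median of all genes was −0.40.

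Cd300lb (114922781 to 114934386, minus strand), the DAP12-coupled activating receptor next to Cd300a, had 139 and 128 CPM in the mutant libraries and 107 and 110 CPM in the WT libraries. The groups did not overlap, and the gene missed the threshold by little (log2 fold change 0.29, SE 0.0817, 95% interval 0.11 to 0.48, edgeR adjusted p = 0.0531). It was called higher with RLE scaling (adjusted p = 0.0475), without noncoding and mitochondrial genes (0.0463) and without Trem2 mutant 3 (0.00729, log2 fold change 0.38). With library totals alone its log2 fold change was −0.08.

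Cd300ld (114982274 to 114989922, minus strand), an activating receptor of mouse neutrophils that couples to the Fc receptor gamma chain, had 92.1 and 83.6 CPM in the mutant libraries and 85.5 and 81.0 CPM in the WT libraries. These values overlapped, and the log2 fold change of 0.08 had an interval of −0.13 to 0.28 (edgeR adjusted p = 0.596). Its neighbour Cd300c2, which is not one of the 10 receptors, had 63.4 and 70.1 CPM in the mutant and 86.3 and 77.5 CPM in the WT libraries and did not pass (log2 fold change −0.29, SE 0.0969, edgeR adjusted p = 0.0874); it was called lower with library totals alone and without Trem2 mutant 3. Cd300c, Cd300e and Cd300ld3 had at most 19 reads in any library and were not tested.

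**Figure D3:**
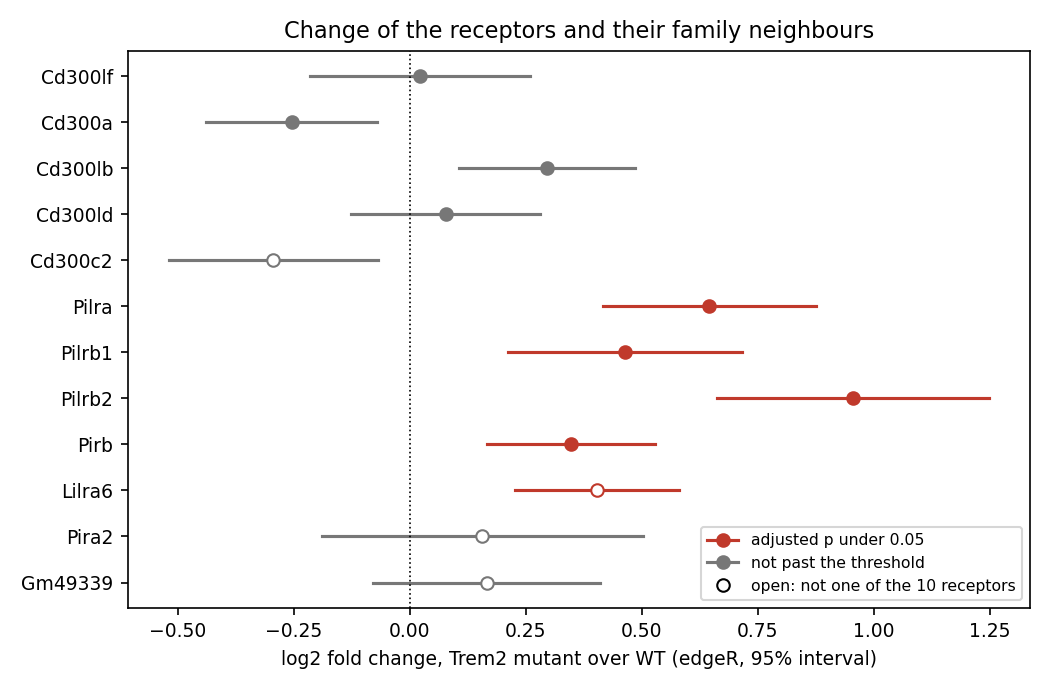
Log2 fold change of Trem2 mutant over WT (x axis, edgeR) with its 95% interval for the 8 receptors (filled points) and 4 related genes (open points), red where the adjusted p is under 0.05. The 3 PILR genes, Pirb and Lilra6 pass, at 0.35 to 0.95; Cd300a and Cd300c2 lie below 0 and do not pass, and with library totals alone Pirb lies at −0.02.

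Within a library the activating and inhibitory neighbours Cd300lb and Cd300a stood in different proportions by genotype. Cd300lb had 1.004 and 0.871 times the CPM of Cd300a in Trem2 mutant 1 and 3, against 0.645 and 0.634 times in WT 1 and 2. Both mutant ratios were above both WT ratios, by a mean of 0.55 on the log2 scale. The ratio of Cd300ld to Cd300lf was 0.146 and 0.117 in the mutant libraries and 0.134 and 0.118 in the WT libraries, and these overlapped. For all 4 CD300 receptors together, the activating over the inhibitory sum was 0.300 and 0.246 in the mutant libraries and 0.240 and 0.222 in the WT libraries. These ratios do not depend on how libraries are scaled, and they too are given as values without a test.

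With 1 library left out, the log2 fold changes of Pilra, Pilrb1, Pilrb2 and Pirb stayed above 0 in all 4 cases, while calls were lost. The values ran from 0.56 to 0.76 for Pilra, from 0.41 to 0.52 for Pilrb1 and from 0.34 to 0.38 for Pirb. Leaving out a WT library took calls away: 2 receptors were called higher without WT 1 and 1 without WT 2, against 4 without Trem2 mutant 1 and 5 without Trem2 mutant 3. Over all genes the higher calls also dropped, to 489 without WT 1 and 719 without WT 2, against 1360 with all libraries.

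**Figure D4:**
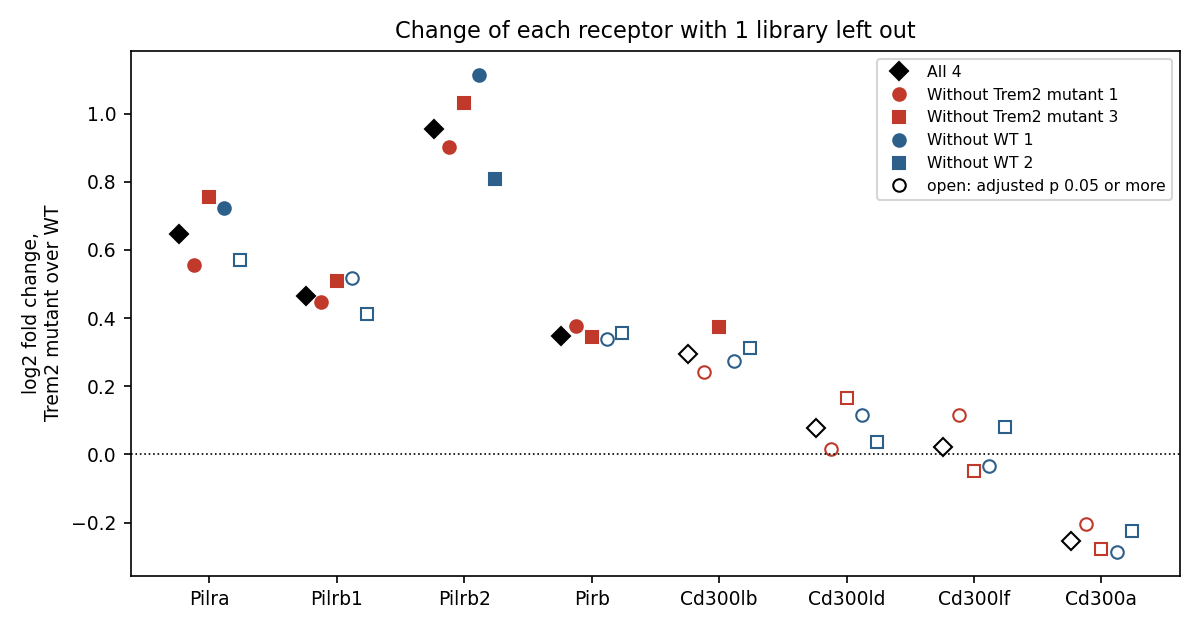
Log2 fold change of Trem2 mutant over WT (y axis) of each receptor with all 4 libraries (black) and with 1 library left out, filled where the adjusted p is under 0.05 and open otherwise. Pilrb2 is filled in every case at 0.81 to 1.11, Cd300a lies at −0.29 to −0.21 when a library is left out and is open throughout, and Cd300lf lies on either side of 0.

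The adaptors and enzymes that the receptors signal through are set beside all genes tested, of which 9.55% were called higher and 3.6% lower. Of 11 tested genes of the ITAM chain 1 rose and 0 fell, with a median log2 fold change of 0.21; at an unadjusted p under 0.05, 5 were higher and 1 lower, DESeq2 and limma-voom each called 1 higher and 0 lower, and library totals alone gave 0 higher and 1 lower. The riser was Lcp2, which encodes the adaptor SLP-76, with 307 and 307 CPM in the mutant and 230 and 249 CPM in the WT libraries (log2 fold change 0.36, edgeR adjusted p = 0.0296). It was not called without WT 1 or without WT 2, and lay at −0.01 with library totals alone. Tyrobp, which encodes DAP12, the shared adaptor of Cd300lb, Pilrb1 and TREM2, had 816 and 787 CPM in the mutant and 702 and 671 CPM in the WT libraries. It did not pass (log2 fold change 0.22, edgeR adjusted p = 0.148), nor did Fcer1g, the gamma chain, at 0.20 (0.164), Btk at 0.28 (0.0630) or Vav1 at −0.25 (0.0853). Of 8 genes of the ITIM chain 0 rose and 1 fell (edgeR; DESeq2 and limma-voom also 0 and 1, library totals alone 0 and 3, and 2 higher and 1 lower at an unadjusted p under 0.05). The one that fell was Dok1, an adaptor that dampens kinase signals, with 25.9 and 23.2 CPM in the mutant and 39.8 and 40.1 CPM in the WT libraries (log2 fold change −0.70, edgeR adjusted p = 0.00652; 0.0545 without WT 1). Ptpn6, which encodes SHP-1, lay at 0.22 (edgeR adjusted p = 0.130) and Inpp5d at 0.14 (0.340). Inpp5f, whose product is not an established partner of ITIMs, was also in this list and lay at 0.43 (0.108). Lyn, a kinase that phosphorylates these motifs, did not pass (0.26, edgeR adjusted p = 0.0952).

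Genes of reported ligands were measured in the same sorted cells. Of 14 ligand genes of PIR-B and gp49B, 1 rose and 1 fell, where 9.55% of all genes tested rose and 3.6% fell. Itgb3, the beta chain of an integrin bound by gp49B, was 2.07-fold lower, with 61.3 and 53.2 CPM in the mutant and 119 and 118 CPM in the WT libraries (log2 fold change −1.05, SE 0.0935, edgeR adjusted p = 6.42e-04). Fn1, fibronectin, was higher at 906 and 400 CPM in the mutant and 175 and 277 CPM in the WT libraries (log2 fold change 1.53, SE 0.359, edgeR adjusted p = 0.0309). The Fn1 call was lost with DESeq2 (0.137) and without WT 1 (0.160), its log2 fold change was 0.83 without Trem2 mutant 1, and the gene is also among the monocyte markers counted above. The class I heavy chain gene H2-D1, a ligand of Pirb, did not pass (log2 fold change 0.28, edgeR adjusted p = 0.110). Of the PILR ligand genes Cd99, Npdc1, Pianp and Cd99l2, only the last 2 had rows, and edgeR, DESeq2 and limma-voom called 0 of them. At an unadjusted p under 0.05, 1 was higher (Cd99l2, log2 fold change 0.56).

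Other inhibitory receptors of leukocytes, most but not all of them ITIM-bearing, give a measure beside the paired receptors. Of 17 tested, 10 rose and 1 fell (median log2 fold change 0.52), where 9.55% of all genes tested rose and 3.6% fell. Vsir and Cd200r1 are in the list without an ITIM, and the gene that fell was Cd22. Ceacam1 rose 2.34-fold, at 130 and 101 CPM in mutant and 50.04 and 48.8 CPM in WT libraries (edgeR adjusted p = 0.00110). The sialic acid receptors Cd33 and Siglece rose by 0.96 and 0.67 and the lectin receptor Clec12a by 0.73 on the log2 scale (edgeR adjusted p = 0.00110, 0.00186 and 0.00191). With library totals alone 2 of the 17 rose and 5 fell, and without WT 1 and without WT 2 the numbers that rose were 4 and 5. Granulocytes express several of these genes, and the granulocyte markers moved with genotype as given above. The part of that shift in the values of these receptors was not tested.

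**Figure D5:**
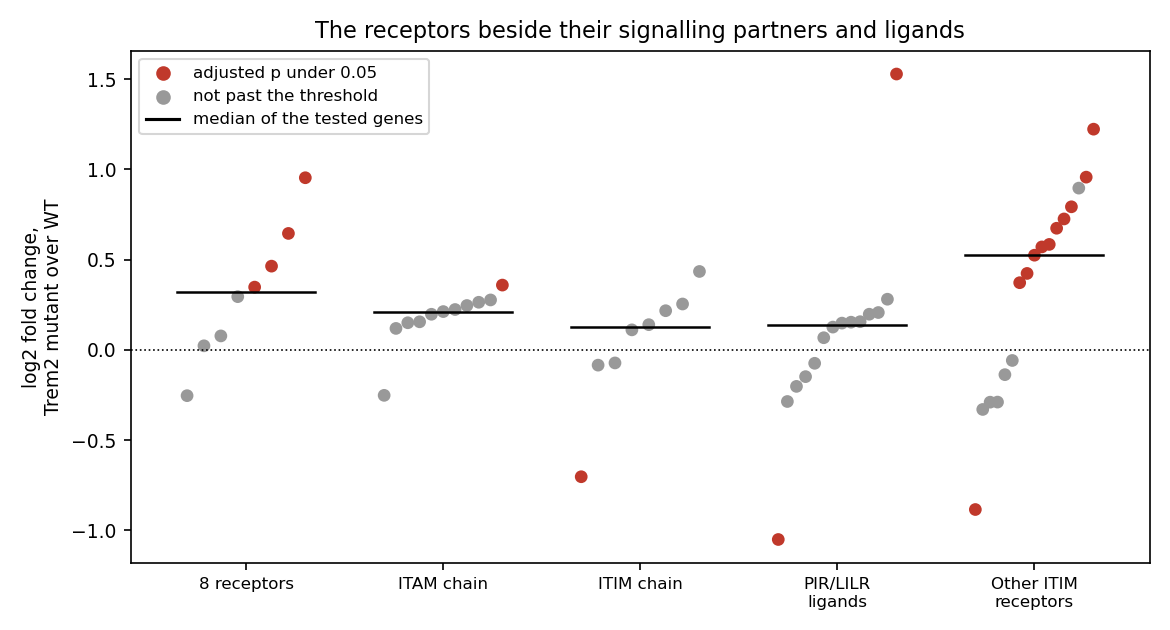
Log2 fold change of Trem2 mutant over WT (y axis) for the tested genes of each list, red where the edgeR adjusted p is under 0.05, with the median as a line. The 8 receptors have a median of 0.32, the ITAM chain 0.21, the ITIM chain 0.13 and the PIR and LILR ligands 0.14. The other inhibitory receptors, labelled as other ITIM receptors though not all bear an ITIM, have 0.52, on the scale where all genes have −0.02.

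Markers of other cells of a tumour were checked beside the results, where 9.55% of all genes tested rose and 3.6% fell. Of 4 tested mast cell markers 0 rose and 0 fell (edgeR; also 0 and 0 at an unadjusted p under 0.05 and by DESeq2 and limma-voom), with sums of 110 to 124 CPM in mutant and 119 to 123 CPM in WT libraries. Kit alone had 113 and 102 CPM in the mutant and 113 and 111 CPM in the WT libraries. The summed eosinophil markers had 211 to 239 CPM in mutant and 99.8 to 101 CPM in WT libraries, and Epx, Prg2, Siglecf and Ear6 rose. Ear1 and Ear2 were also called higher, but they entered the test only through their mutant reads (19 and 25 for Ear1, 47 and 26 for Ear2), with 0 and 0 and with 10 and 4 reads in the WT libraries. Without WT 1 and without WT 2, 3 eosinophil markers were called higher in each case. Of 9 macrophage markers 4 rose and 0 fell, against 6 higher and 2 lower at an unadjusted p under 0.05, 4 higher and 2 lower with library totals alone, and 0 higher without WT 1. Their sums were 901 to 1145 CPM in mutant and 897 to 984 CPM in WT libraries. Of 4 tested dendritic cell markers 0 rose and 0 fell, also by DESeq2, limma-voom and at an unadjusted p under 0.05. The sums of the dendritic cell markers were 18.5 to 19.8 CPM in mutant and 11.7 to 18.2 CPM in WT libraries. Fibroblasts would be removed by a sort for CD45+ CD11B+ GR1+ cells. Of 5 tested markers of theirs 3 collagen genes rose, with marker sums of 400 to 445 CPM in mutant and 108 to 158 CPM in WT libraries. Among 2 tested epithelial markers 0 rose and 1 fell. This was Cdh1, with 82.5 and 85.0 CPM in the mutant and 151 and 158 CPM in the WT libraries. Its log2 fold change was −0.88 (edgeR adjusted p = 6.35e-04). Among 5 tested B cell markers 0 rose and 0 fell (median log2 fold change −0.78), with 1 lower at an unadjusted p under 0.05. The 1 tested T and NK cell marker did not pass. The part of these cells in the receptor values was not tested.

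The genes most like Pilrb2, the receptor with the lowest p, were found by the distance between log2 CPM profiles, centred on each gene's mean, over the 4 libraries and 10200 genes with at least 5 CPM. The nearest were Tfdp1 (distance 0.0874), Arl2bp (0.0948) and Fads6 (0.102).

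In the 250 bases before the RefSeq start, 9 of the 10 receptors had a sequence to search, on both strands. The PU.1 core GAGGAA, a letter run bound by a factor of all myeloid cells, was found 3 times before Pirb, once each before Pilra, Cd300a, Cd300ld and Cd300lf, and not before Pilrb1, Pilrb2, Cd300lb or Lilr4b. Of 32851 promoter windows of that length, 23.3% held it. The C/EBP letters TTNNGNAA, found in 36.8% of all windows, occurred in 8 of the 9, and at the same places 236 and 89 bases before the start in Pilrb1 and Pilrb2. At Pirb a site of each kind overlapped. The AP-1 letters TGANTCA, present in 6.75% of windows, were in none of the 9. Receptors that were called higher thus included windows with and without the PU.1 core.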

How the data were processed

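The authors deposited raw counts of reads per Ensembl gene for 4 libraries, not normalized. The submitters' processing notes name the tools FastQC, DESeq2 and STAR 2.5.2a and the build GRCm38 (mm10), but the sources used here do not name the read counter, strand setting or annotation release. No gene had fewer than 11 reads in all. Names, positions and exon lengths came from GENCODE M21, which matched 17422 of 17476 identifiers. The column of Trem2 mutant 3 has a number that appears in no sample title, and it entered the fit as a mutant library by its genotype alone. The libraries of a genotype were not repeats of 1 library: the squared difference between them, over that from counting noise, had a median of 3.83 in mutant and 0.979 in WT, where noise alone gives 0.455. Libraries were scaled by their totals for this. The mutant value therefore also holds the shift from Gm42418, with 13.9% of reads in Trem2 mutant 1 and 0.418% in Trem2 mutant 3.

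R 4.3.3 and edgeR 4.0.16 were used: filterByExpr (14239 genes), TMM scaling, the quasi-likelihood test in its default form, two-sided, genotype as the only term, Benjamini-Hochberg adjustment over all genes at 0.05. Intervals are 95%, and standard errors are the log2 fold change over the root of F. CPM and RPKM are TMM-scaled. The common biological coefficient of variation was 0.106. A floor of 3 counts is 0.322 to 0.359 CPM. Alternatives were RLE, upper-quartile and library-total scaling, no filter or a stricter one (10 reads in 2 libraries and a mean of 1 CPM), DESeq2 1.42.0, limma-voom (limma 3.58.1), the bias-adjusted form, 3533 noncoding and mitochondrial genes left out, a 2-fold threshold, near-identical genes summed, and each library left out. A library then left alone in its group is taken to vary as the pair does. Counts simulated for this comparison (13937 genes) held 98 genes with a 2-fold change, of which 71 were called, and 99 with a 4-fold change, of which 97 were; 5 of 173 calls fell on unchanged genes.

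The receptors and lists were chosen with earlier results of these data known. Named are the receptors, their family genes, Trem2, up to 4 genes of lowest p per list, and the nearest profiles; some of the results this rule covers are not reported here. Gm14548, Gm15922, Gm49339, Gm36551, Gm43495, Zcwpw1, Gm42418, Xist, Fcer1g and single marker genes were named outside that rule, after values were seen.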

Additional observations from a re-analysis of the deposited data

How the results depend on the processing

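No paired analysis was possible because the columns of the 2 genotypes share only the number 1. With all libraries 4 receptors were called higher and 0 lower, and 1360 genes higher and 513 lower. With library totals alone, 1 receptor was higher and 1 lower, and 650 genes higher and 4365 lower, while the median of all genes moved to −0.40. Relative to that median Pilrb2 lay at 0.97, Pilra at 0.66, Pilrb1 at 0.49, Pirb at 0.37 and Cd300a at −0.23. The log2 fold changes that turned to below 0 there were those of Cd300lf (−0.34), Cd300lb (−0.082), Cd300ld (−0.30), Pirb (−0.023), Pira2 (−0.22), Gm49339 (−0.21), Tyrobp (−0.15), Fcer1g (−0.18), Lcp2 (−0.013), Btk (−0.094), Ptpn6 (−0.16), Lyn (−0.11) and H2-D1 (−0.097). Cd300lf also lay at −0.014 with upper-quartile scaling and, with 1 library left out, at −0.048 (without Trem2 mutant 3) to 0.12, including −0.035 without WT 1. Pira2 ran from −0.014 without WT 1 to 0.35; the cause was not tested. At a 2-fold threshold 0 receptors were higher, and 98 genes higher and 13 lower. DESeq2 called 205 genes lower. With 1 library left out, receptors called higher ranged from 1 to 5 and lower from 0 to 0, and genes higher from 489 to 2090 and lower from 92 to 912. The call of Pilrb2 was lost at the 2-fold threshold and held under the other 13 alternatives that kept it as a gene of its own. RLE and upper-quartile scaling, the filters, limma-voom, the bias-adjusted form and leaving out noncoding genes gave 4 or 5 receptors higher and 0 lower, and DESeq2 gave 3 and 0. The sum of Lilrb4a and Lilr4b was not run. Cd300c, Cd300e, Cd300ld3 and Lilra5 had too few reads for a test.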
